A study of Mus musculus with 6 samples.

Results

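Serum response factor (SRF) and 9 genes of the actin contractile apparatus were followed in YUMM3.3 melanoma tumors with and without rigosertib (RGS). The 10 genes, chosen by name, were *Srf*, *Acta2*, *Actg2*, *Actb*, *Tagln*, *Cnn1*, *Cnn2*, *Myl9*, *Vcl* and *Tpm1*, and each matched 1 of the 40166 rows of the count table. YUMM3.3 is a mouse melanoma cell line with mutant BRAF, so every tumor descended from 1 line, grown under the skin of C57BL/6 mice. The 3 control tumors came from hosts given water (0 mg/kg) and the other 3 from hosts given RGS at 300 mg/kg, both by oral gavage, and tumors were collected after 17 days of treatment. The labels give neither the age nor the sex of these mice.

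SRF is a transcription factor that binds a short A/T-rich DNA element called the CArG box. It acts with partner proteins: the myocardin-related factors MRTF-A and MRTF-B, which monomeric actin holds in the cytoplasm, and the ternary complex factors of the ELK family, which respond to ERK signaling. Genes of actin, actin-binding proteins and adhesion are well-known targets of the first arm, and immediate early genes of the second. In tumors, *Acta2* is also widely used as a marker of myofibroblasts and pericytes.

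The counts per tumor lay between 13837932 and 32555494, all 3 vehicle libraries exceeded the RGS libraries in depth, and a floor of 3 counts corresponded to at most 0.226 CPM (read counts scaled by TMM to a common library total). Depth and treatment therefore cannot be told apart by design, but with all libraries thinned to the smallest one every call on the genes of interest was the same. The tissue label was checked against marker genes. The paper describes these bulk samples as holding tumor, stromal and immune cells, and reports leukocytes in YUMM3.3 tumors by flow cytometry. Of 7 melanocyte markers, *Tyr*, *Dct* and *Mlana* had no count in any tumor, and *Mitf* alone had a mean above 1 CPM (5.45 ± 1.74 CPM in vehicle and 7.43 ± 2.97 CPM in RGS tumors, ± SD, n = 3 per group). The leukocyte genes *Ptprc*, *Adgre1* and *Cd3e* also had no count in any tumor, while *Cd68* was at 62.5 ± 3.20 CPM in vehicle and 74.0 ± 12 CPM in RGS tumors (± SD, n = 3 per group). Of 5 endothelial markers, *Kdr*, *Pecam1* and *Tek* had means under 1 CPM in both groups. *Vwf* was at 2.27 ± 0.781 CPM in vehicle and 2.87 ± 0.229 CPM in RGS tumors. *Cdh5* was at 0.555 ± 0.266 CPM in vehicle and 6.20 ± 3.78 CPM in RGS tumors (± SD, n = 3 per group).

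The promoters of the members were read for CArG boxes, since that is where SRF can bind. RefSeq promoters on GRCm38.p6 were matched for 7 of the 10 genes and not for *Actg2*, *Actb* and *Tagln*. An exact CArG box was taken as CC, then 6 bases that are each A or T, then GG, a pattern that is its own reverse complement, so both strands were covered. Within 250 bases before to 50 bases after the start site, *Srf*, *Cnn2*, *Myl9* and *Vcl* held at least 1 exact box, that is 4 of 7 genes (57.1%), compared with 1.63% of all 32851 promoters of the same length. Allowing 1 C or G among the 6 central bases added *Acta2*, giving 5 of 7 genes (71.4%) against 9.98% of all promoters. *Cnn1* and *Tpm1* had no match in this window. These are matches of letters and show no binding. The genes were chosen as SRF and known targets of it, so a high share follows from that choice and is no result of these data.

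The 250 bases before the start site are printed for the 5 genes with a match, 5′ to 3′ on the strand of the gene, with the boxes in capitals. Of these 5 genes, 4 fell with RGS and *Srf* itself did not pass the test, as described next. Over all 15355 tested genes, 16.5% were called lower. Without a match in the window, *Cnn1* fell as well and *Tpm1* did not pass, while *Actb*, which rose, had no promoter to read. The genes were picked as SRF and its targets, and a link between boxes and changes was not tested.
Srf, chr17:46556163-46556412, - strand: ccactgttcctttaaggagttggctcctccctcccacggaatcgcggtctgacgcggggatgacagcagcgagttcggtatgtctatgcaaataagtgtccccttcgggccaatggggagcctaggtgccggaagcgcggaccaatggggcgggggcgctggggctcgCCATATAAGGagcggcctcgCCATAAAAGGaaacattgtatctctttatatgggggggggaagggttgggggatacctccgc
Acta2, chr19:34255374-34255623, - strand: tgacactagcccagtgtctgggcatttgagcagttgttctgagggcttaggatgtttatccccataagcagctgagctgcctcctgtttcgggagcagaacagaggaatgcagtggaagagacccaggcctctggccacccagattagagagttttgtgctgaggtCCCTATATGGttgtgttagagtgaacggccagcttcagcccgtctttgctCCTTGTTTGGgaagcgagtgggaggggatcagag
Cnn2, chr10:79988350-79988599, + strand: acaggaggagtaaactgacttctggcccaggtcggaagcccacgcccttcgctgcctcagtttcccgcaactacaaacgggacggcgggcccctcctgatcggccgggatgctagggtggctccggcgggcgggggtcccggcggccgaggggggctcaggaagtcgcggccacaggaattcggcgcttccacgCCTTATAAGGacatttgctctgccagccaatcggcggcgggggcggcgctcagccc
Myl9, chr2:156775214-156775463, + strand: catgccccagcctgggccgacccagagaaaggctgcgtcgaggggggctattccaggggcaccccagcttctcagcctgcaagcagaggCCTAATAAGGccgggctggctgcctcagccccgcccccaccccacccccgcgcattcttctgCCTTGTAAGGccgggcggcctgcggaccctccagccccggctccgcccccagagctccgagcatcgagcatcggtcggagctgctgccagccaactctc
Vcl, chr14:20929148-20929397, + strand: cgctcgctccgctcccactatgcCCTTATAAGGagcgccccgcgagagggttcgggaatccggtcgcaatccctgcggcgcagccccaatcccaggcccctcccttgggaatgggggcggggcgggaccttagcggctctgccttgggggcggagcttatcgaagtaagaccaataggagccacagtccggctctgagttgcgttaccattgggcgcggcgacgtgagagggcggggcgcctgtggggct
*Srf* carried 2 exact boxes, at 82 to 73 and 62 to 53 bases before its start. The 2 boxes of *Acta2*, at 84 to 75 and 34 to 25 bases, each had a C or G in the centre. *Cnn2* and *Vcl* shared the same box of letters, at 56 to 47 bases in *Cnn2* and at 227 to 218 bases in *Vcl*. *Myl9* had an exact box at 161 to 152 bases and an inexact one at 99 to 90 bases.

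**Figure D1:**
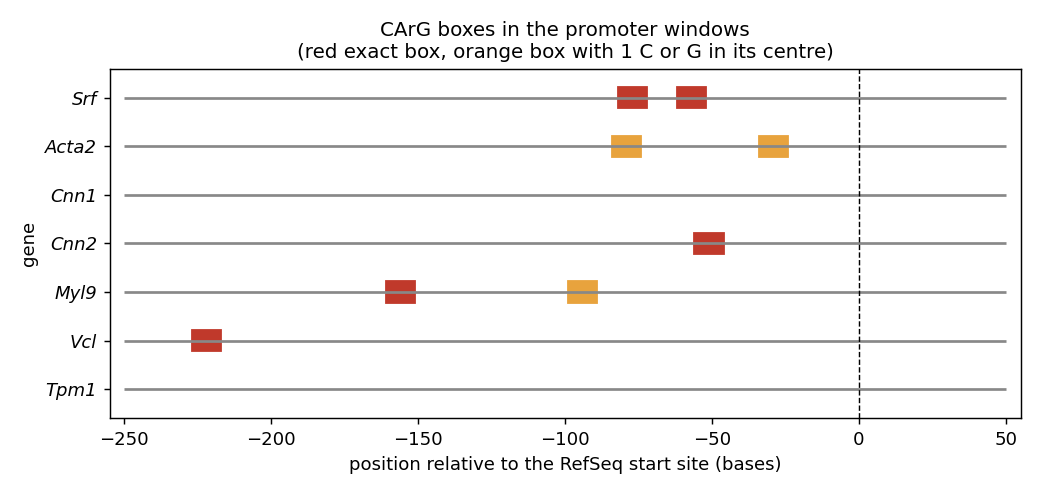
Positions of CArG boxes (bars) in the promoter windows of the 7 genes with a RefSeq promoter, from 250 bases before to 50 bases after the start site (dashed line, x axis in bases). Red bars are exact boxes in *Srf*, *Cnn2*, *Myl9* and *Vcl*, orange bars are boxes with 1 C or G in the centre in *Acta2* and *Myl9*, and *Cnn1* and *Tpm1* have none.

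The contractile genes did not move together in RGS-treated tumors. *Acta2*, *Cnn1*, *Cnn2*, *Myl9* and *Vcl* fell, *Actb* rose, *Srf* itself and *Tpm1* did not pass the threshold, and *Tagln* and *Actg2* were barely counted in either group. In numbers, 8 of the 10 genes passed the filter on low counts (group median of 5 counts or more in vehicle or RGS tumors), and all 8 met it in both groups. Of these 8 genes, 5 were lower and 1 was higher at an adjusted p under 0.05 in edgeR's quasi-likelihood test. The background was high, with 16.5% of all 15355 tested genes called lower and 16.3% called higher (32.8% in either direction). The shares called lower and higher were 17.2% and 18.0% in DESeq2, 22.2% and 22.2% in limma voom, and 10.2% and 10.5% in edgeR at an adjusted p under 0.01. The median log2 fold change of the 8 genes was -0.98, and that of all tested genes was -0.05. In this bulk measurement, fewer cells of a type and less RNA per cell cannot be told apart.

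**Figure D2:**
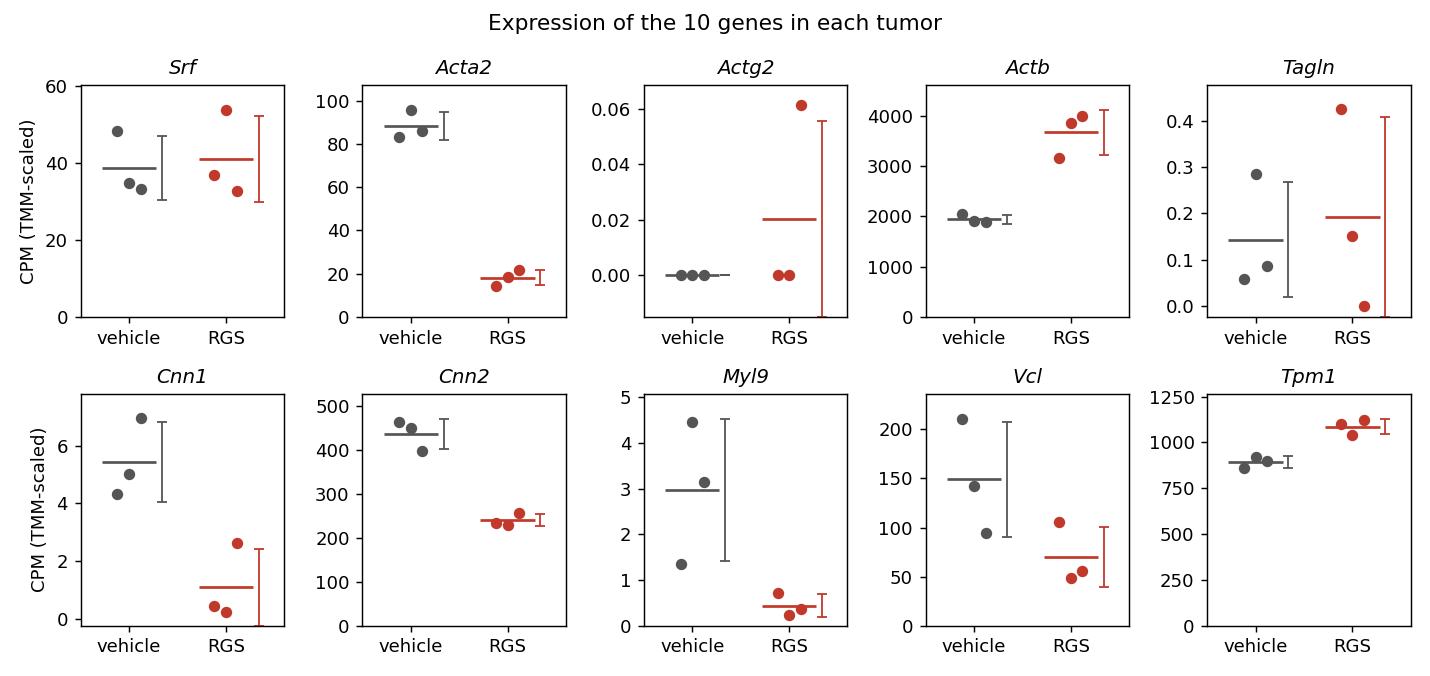
Expression of each of the 10 genes in CPM (y axis, scale differs between panels) in the 3 vehicle (grey) and 3 RGS (red) tumors, with the mean as a bar and the SD as a whisker. *Acta2*, *Cnn1*, *Cnn2* and *Myl9* are lower and *Actb* and *Tpm1* higher in every RGS tumor than in any vehicle tumor, while the groups overlap for *Srf*, *Vcl*, *Tagln* and *Actg2*.

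The transcription factor came first. *Srf* (ENSMUSG00000015605.6, chromosome 17 of GRCm38, 46548329 to 46556175) was at 48.2, 34.7 and 33.1 CPM in vehicle replicates 7, 8 and 9 and at 36.9, 53.8 and 32.7 CPM in RGS replicates 10, 11 and 12. The groups overlapped, with the highest and the lowest value both in RGS tumors. The log2 fold change of RGS over vehicle was 0.09, with a standard error of 0.22 and a 95% interval from -0.37 to 0.54 (edgeR, adjusted p = 0.800). Changes in *Srf* of more than about 1.46-fold upward or to below 0.773 of the vehicle level lay outside this interval. With RGS replicate 11 left out, the log2 fold change was -0.16. The gene lies within *Gm26904* on the opposite strand, which had no count.

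Among the 3 actins, *Acta2* and *Actb* went in opposite directions. *Acta2*, which encodes smooth muscle alpha-actin (ENSMUSG00000035783.8, chromosome 19, 34241090 to 34255336), was at 83.1, 95.8 and 85.9 CPM with vehicle and at 14.3, 18.7 and 21.5 CPM with RGS. Every RGS tumor was far below every vehicle tumor. This gave a log2 fold change of -2.28 (standard error 0.19, edgeR adjusted p = 6.63e-08), a level 4.86-fold lower with RGS, and it stayed between -2.45 and -2.14 when each tumor was left out in turn.

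*Actb* encodes the cytoplasmic beta-actin found in nearly all cells and is often used as a reference gene (ENSMUSG00000029580.14, chromosome 5, 142903115 to 142906754). It was counted at 2046, 1899 and 1886 CPM with vehicle and at 3156, 3858 and 3990 CPM with RGS. Here the RGS tumors were all above the vehicle tumors. This gave a log2 fold change of 0.92 (standard error 0.15, edgeR adjusted p = 1.12e-04), or 1.89-fold, and lay between 0.83 and 1.01 with each tumor left out.

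*Actg2*, the enteric smooth muscle actin (chromosome 6, 83512905 to 83536265), had 0 counts in 5 tumors and 1 count in RGS replicate 12. It was therefore not detectable at this depth in either group, and no fold change is given.

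**Figure D3:**
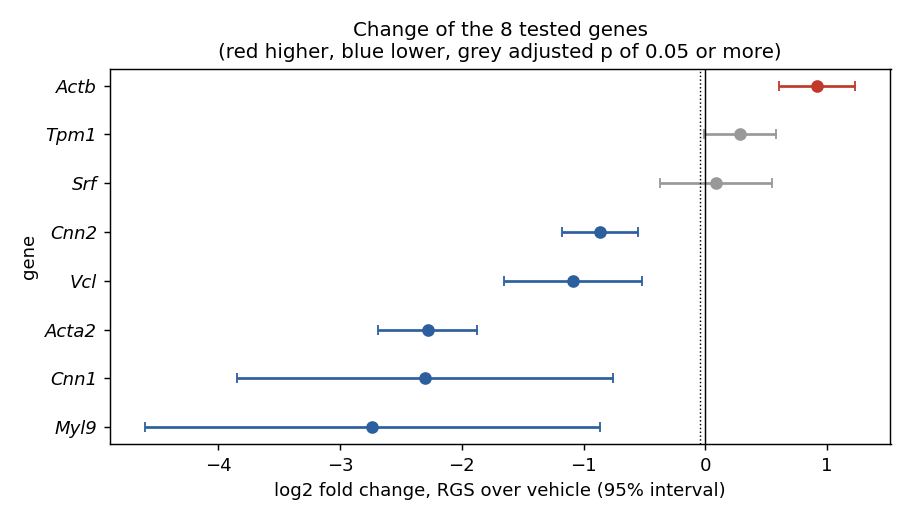
Log2 fold change of RGS over vehicle (x axis, with 95% interval) for the 8 genes that passed the filter, from edgeR; the solid line marks 0 and the dotted line the median of all tested genes at -0.05. *Actb* (red) is higher, *Cnn2*, *Vcl*, *Acta2*, *Cnn1* and *Myl9* (blue) are lower, and *Tpm1* and *Srf* (grey) did not pass the threshold.

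The make-up of the actin reads was compared within each tumor, which does not depend on how libraries are scaled. Reads were divided by gene length and summed over the 6 actin genes. *Acta2* took 4.07%, 5.03% and 4.80% of this sum in the vehicle tumors and 0.519%, 0.610% and 0.672% in the RGS tumors. *Actb* took 67.7 ± 2.06% with vehicle and 80.8 ± 4.26% with RGS, and *Actg1*, the other cytoplasmic actin, 27.7 ± 2.22% and 18.6 ± 4.34% (± SD, n = 3 per group). For these 3 genes the shares did not overlap between the groups, and each gave p = 0.1 in a two-sided exact permutation test, the smallest p that 3 tumors against 3 allow.

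Set against each other per kb of length, there were 68.5 ± 7.38 *Acta2* reads for every 1000 of *Actb* in vehicle and 7.41 ± 0.651 in RGS tumors (± SD, n = 3 per group). *Actg1* as such was at 791 ± 112 CPM and 825 ± 132 CPM (± SD, n = 3 per group), with a log2 fold change of 0.06 and a 95% interval from -0.28 to 0.40 (edgeR, adjusted p = 0.810), and -0.08 when scaled by library size only. *Acta1* and *Actc1*, the skeletal and cardiac actins, stayed under 1 CPM in every tumor. The coding sequences of actins are similar, so reads that fit several of them may have been shared or dropped in counting, which makes the absolute levels uncertain.

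**Figure D4:**
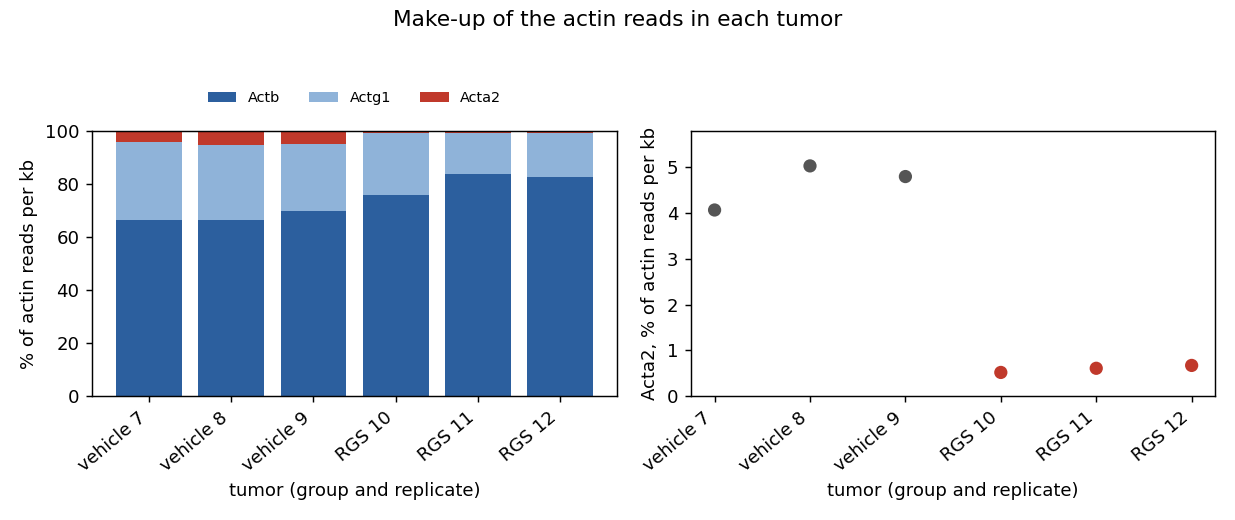
Left, share of *Actb*, *Actg1* and *Acta2* in the actin reads per kb of each tumor (y axis in percent, from 0 to 100); right, the *Acta2* share alone on its own axis. The *Acta2* share is 4.07% to 5.03% in the 3 vehicle tumors (grey) and 0.519% to 0.672% in the 3 RGS tumors (red).

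The actin-binding calponins both fell. *Cnn2*, the calponin of many non-muscle cells (ENSMUSG00000004665.10, chromosome 10, 79988584 to 79996062), was at 464, 451 and 399 CPM with vehicle and at 234, 230 and 257 CPM with RGS. The groups were well separated and the RGS tumors lay close together. Its log2 fold change was -0.86 (standard error 0.15, edgeR adjusted p = 1.81e-04), a 1.82-fold lower level.

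*Cnn1*, the smooth muscle calponin (ENSMUSG00000001349.5, chromosome 9, 22099216 to 22109630), was a gene of low level. It was at 4.31, 5.02 and 6.96 CPM with vehicle (151, 141 and 162 counts) and at 0.426, 0.226 and 2.63 CPM with RGS (9, 3 and 43 counts). RGS replicate 12 stood above the other RGS tumors but below all vehicle tumors. The fit gave a log2 fold change of -2.30 with a wide standard error of 0.74 (edgeR, adjusted p = 0.0217). Without RGS replicate 12 it was -4.01, without RGS replicate 10 it was -1.89 and did not pass (adjusted p = 0.0830), and without vehicle replicate 9 it was -2.08 (adjusted p = 0.0558).

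The third calponin, *Cnn3*, was at 387 ± 6.31 CPM in vehicle and 360 ± 22 CPM in RGS tumors (± SD, n = 3 per group), a log2 fold change of -0.11 with a 95% interval from -0.41 to 0.19 (edgeR, adjusted p = 0.609).

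*Tagln* encodes transgelin, a calponin relative and a common marker of smooth muscle (ENSMUSG00000032085.5, chromosome 9, 45929619 to 45936058). Its counts were 2, 8 and 2 with vehicle and 9, 2 and 0 with RGS, and did not pass the filter. A fit without the filter gave a log2 fold change of 0.42 with a 95% interval from -4.27 to 5.12, too wide for a difference to be detectable at this depth. The gene overlaps 108 bases of *Pcsk7* and a stretch of the antisense gene *Gm48529*, both on the opposite strand, and the strand setting of the counting is not given in the sources used here. *Tagln2*, its non-muscle relative, rose from 353 ± 25.7 to 560 ± 59.3 CPM (± SD, n = 3 per group, with a log2 fold change of 0.67, edgeR adjusted p = 0.00214). *Tagln3* had 28 counts in RGS replicate 11 and 0 in the other 5 tumors, and did not pass the filter.

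*Myl9*, a regulatory light chain of smooth muscle and non-muscle myosin (ENSMUSG00000067818.6, chromosome 2, 156775420 to 156781658), was also counted at a low level. It was at 1.34, 4.45 and 3.14 CPM with vehicle (47, 125 and 73 counts) and at 0.710, 0.226 and 0.367 CPM with RGS (15, 3 and 6 counts). The groups did not overlap, but the vehicle tumors spread widely. The fit gave -2.73 on the log2 scale (standard error 0.89, edgeR adjusted p = 0.0241), and it did not pass without vehicle replicate 8 (-2.32, adjusted p = 0.217) or without vehicle replicate 9 (-2.70, adjusted p = 0.0677). The more abundant light chain *Myl12a* was at 482 ± 55.7 and 379 ± 13.6 CPM (± SD, n = 3 per group, with a log2 fold change of -0.34, edgeR adjusted p = 0.0850), and was called lower by limma voom (adjusted p = 0.00304), with library size only (0.0179) and without vehicle replicate 7 (0.00543). *Myl6*, the essential light chain, was at 303 ± 74.4 and 312 ± 28.1 CPM, and *Myl12b* at 8.37 ± 0.841 and 12.5 ± 3.46 CPM (± SD, n = 3 per group), and neither passed the test.

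*Vcl* encodes vinculin, which links actin filaments to integrin adhesions (ENSMUSG00000021823.10, chromosome 14, 20929398 to 21033676). Its level was 211, 142 and 94.5 CPM in vehicle replicates 7, 8 and 9 and 105, 48.9 and 56.2 CPM in RGS replicates 10, 11 and 12. The spread within each group was wide, and RGS replicate 10 exceeded vehicle replicate 9. Its log2 fold change was -1.09 (standard error 0.27, edgeR adjusted p = 0.00456), from -0.75 without vehicle replicate 7 to -1.50 without RGS replicate 10, and DESeq2 did not call it (adjusted p = 0.0702). *Vcl* overlaps 2235 bases of *Ap3m1* on the opposite strand, which had 630 to 2405 counts and a log2 fold change of -0.27 (edgeR, adjusted p = 0.248).

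*Tpm1* encodes a tropomyosin, which coils along actin filaments (ENSMUSG00000032366.15, chromosome 9, 67022590 to 67049406). It was at 860, 923 and 899 CPM with vehicle and at 1102, 1038 and 1121 CPM with RGS. All RGS values were above all vehicle values, by a small margin. The log2 fold change of 0.28 (standard error 0.14, 95% interval -0.01 to 0.58) did not pass (edgeR, adjusted p = 0.136), while DESeq2 and limma voom gave adjusted p-values of 0.0488 and 0.0424. The other tropomyosins *Tpm2*, *Tpm3* and *Tpm4* had log2 fold changes of 0.22, -0.17 and -0.20, and did not pass in edgeR, while limma voom called *Tpm4* lower (adjusted p = 0.0419).

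Counting groups that do not overlap, 6 of the 8 tested genes were separated, 4 of them lower and 2 higher with RGS. Across all tested genes 45.8% were separated, 24.1% lower and 21.7% higher.

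Levels of different genes were compared per length, as reads per kb scaled to one common total over all genes (TPM). In vehicle tumors *Actb* led with 2395 ± 369 TPM, followed by *Cnn2* (589 ± 107), *Tpm1* (453 ± 40.5), *Acta2* (163 ± 18.3), *Vcl* (61.7 ± 30.5), *Srf* (44.7 ± 14.4), *Myl9* (8.23 ± 4.16) and *Cnn1* (6.42 ± 0.933), all as TPM ± SD with n = 3. *Cnn2* and *Tpm1* overlapped between tumors, as did *Vcl* with *Srf* and *Myl9* with *Cnn1*, so the ranges of these neighbors were not separated. Within each vehicle tumor, *Cnn2* was above *Tpm1* and *Vcl* above *Srf* in 3 of 3 tumors, while *Myl9* was above *Cnn1* in 2 of 3. In RGS tumors *Tpm1* (484 ± 38.2 TPM) stood above *Cnn2* (282 ± 13.1 TPM), with no overlap. There *Srf* (41.2 ± 11.9 TPM), *Acta2* (29.2 ± 3.73 TPM) and *Vcl* (25.2 ± 12.8 TPM) overlapped from neighbor to neighbor, and *Acta2*, above *Srf* in every vehicle tumor, was below it in 2 of 3 RGS tumors (± SD, n = 3 per group).

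The partners of SRF were examined next. For this list and each list below, the shares over all tested genes were 16.5% called lower and 16.3% called higher, and no list was tested as a set. *Mrtfa* (listed in the table as *Mkl1*), which encodes MRTF-A, rose from 47.5 ± 16.9 to 108 ± 10.3 CPM (± SD, n = 3 per group), a 2.27-fold higher level (standard error of the log2 fold change 0.21, edgeR adjusted p = 2.55e-04). *Elk3*, a ternary complex factor, rose from 171 ± 15.1 to 250 ± 22.9 CPM (± SD, n = 3 per group, with a log2 fold change of 0.55, edgeR adjusted p = 0.00909), a call lost without RGS replicate 11 (adjusted p = 0.0676). In all, 2 of 5 tested partners were higher and 0 were lower in edgeR (1 at an unadjusted p under 0.05, 0 in DESeq2 and 1 in limma voom).

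The other 3 tested partners did not pass. *Mrtfb* (*Mkl2*) was at 19.5 ± 5.27 and 22.3 ± 5.19 CPM, *Elk1* at 39.9 ± 3.87 and 28.8 ± 6.87 CPM, and *Elk4* at 29.8 ± 1.49 and 31.6 ± 9.23 CPM (± SD, n = 3 per group). *Elk1* was lower in every RGS tumor than in any vehicle tumor, with a log2 fold change of -0.47 (edgeR, adjusted p = 0.0956). *Myocd*, the cofactor specific to smooth and cardiac muscle, had 12 counts in vehicle replicate 8 and no count in any other tumor. It did not pass the filter.

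Further targets of the MRTF arm also moved both ways. Of 26 such genes outside the members, 5 were lower, 9 were higher and 12 did not pass, and their median log2 fold change was 0.15. Over all tested genes 16.5% were lower and 16.3% higher, so the number lower was close to the background. The largest decreases were in *Ccn1* (*Cyr61*), a secreted matricellular protein (log2 fold change -1.23, from 609 ± 12.8 to 260 ± 35.7 CPM), *Pdlim5*, a PDZ-LIM protein of the cytoskeleton (-0.88, from 213 ± 34.5 to 116 ± 3.61 CPM), and *Ankrd1* (-0.83, from 113 ± 11 to 64.0 ± 11.5 CPM). The largest increases were in *Pdlim7*, also a PDZ-LIM protein (log2 fold change 1.80, from 75.6 ± 7.96 to 263 ± 27.6 CPM), *Itga5*, the fibronectin receptor subunit (1.33, from 222 ± 42.0 to 556 ± 11.4 CPM), and *Zyx*, the adhesion protein zyxin (1.21, from 305 ± 68.3 to 706 ± 85.2 CPM; SD, n = 3 throughout). In these 6 genes the groups did not overlap, and the largest adjusted p was 0.00111 (edgeR).

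**Figure D5:**
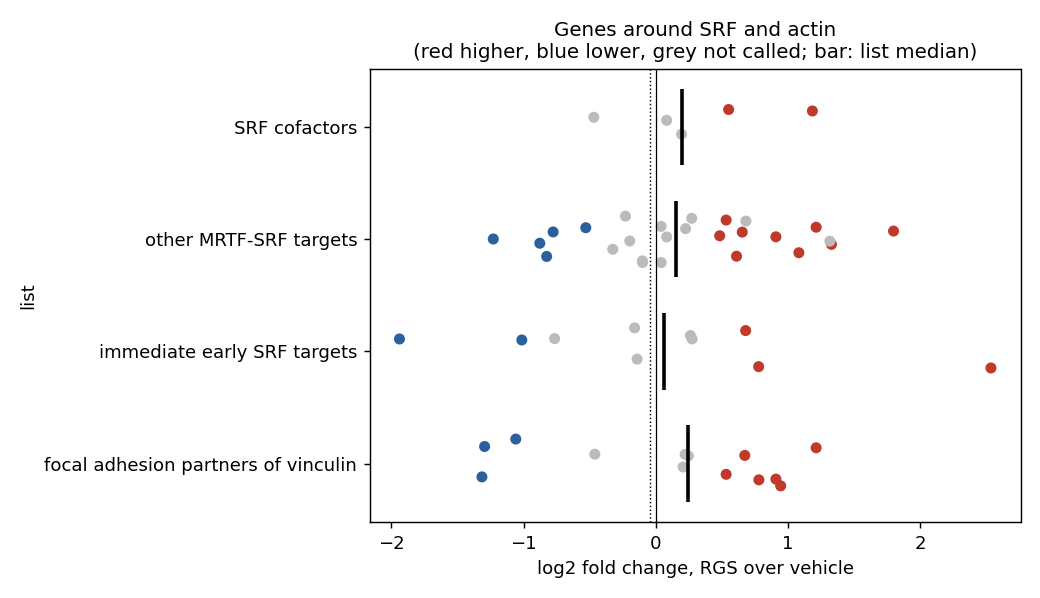
Log2 fold change of RGS over vehicle (x axis) for each tested gene of 4 lists, with the list median as a black bar and the median of all tested genes as a dotted line. Genes called higher (red) and lower (blue) occur in every list but the SRF cofactors, which hold 2 higher and no lower genes.

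Vinculin's partners in focal adhesions included genes that rose and genes that fell. Of 13 such genes, 6 were higher and 3 were lower, with a median log2 fold change of 0.25 (*Zyx*, *Tln1* and *Actn1* also stand in the list above). The shares over all tested genes were 16.3% higher and 16.5% lower. *Tln1*, which encodes talin, the protein that recruits vinculin, rose from 274 ± 106 to 514 ± 14.3 CPM (± SD, n = 3 per group, with a log2 fold change of 0.91, edgeR adjusted p = 0.00196), and *Tns1*, a tensin, had a log2 fold change of 0.94. Per kb there were 652 ± 104 *Vcl* reads for every 1000 of *Tln1* in vehicle and 164 ± 76.1 in RGS tumors (± SD, n = 3 per group). *Lims1* and *Parva*, which encode the partners of integrin-linked kinase, fell, with log2 fold changes of -1.29 and -1.06 (edgeR, adjusted p = 1.41e-05 and adjusted p = 1.10e-04). *Sorbs3*, the vinculin-binding protein vinexin, had a log2 fold change of -1.32 (adjusted p = 0.0256), and its call was lost without vehicle replicate 7, RGS replicate 11 or RGS replicate 12, with adjusted p-values from 0.0529 to 0.0576.

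The immediate early genes, targets of the ternary complex arm, were divided as well. Of 12 listed genes, 1 was not analysed here and 10 were tested, of which 2 were lower and 3 higher (median log2 fold change 0.06). Beside 16.5% lower and 16.3% higher over all tested genes, the number lower was again close to the background. *Egr1*, a zinc finger transcription factor, fell from 262 ± 8.47 to 68.4 ± 8.90 CPM (± SD, n = 3 per group, with a log2 fold change of -1.94, edgeR adjusted p = 4.15e-08). *Mcl1*, an anti-apoptotic BCL2 relative, fell with a log2 fold change of -1.01. *Ier3* rose from 224 ± 12.2 to 1297 ± 159 CPM (± SD, n = 3 per group, with a log2 fold change of 2.53, edgeR adjusted p = 1.25e-09), and *Dusp1*, a phosphatase of MAP kinases, had a log2 fold change of 0.78. *Fosb*, an AP-1 subunit, had a log2 fold change of 0.68 (adjusted p = 0.0170) and lost its call without vehicle replicate 8, vehicle replicate 9 or RGS replicate 12, with adjusted p-values from 0.0504 to 0.0766.

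Markers of contractile cells were read beside the fall of *Acta2*. These bulk counts do not separate host cells from tumor cells. Of 12 smooth muscle contractile genes, 9 were tested, 3 were higher and 0 were lower in edgeR (0 also at an unadjusted p under 0.05, in DESeq2 and in limma voom). *Synpo2* and *Smtn*, both actin-associated, rose, with log2 fold changes of 1.79 and 0.65. The third, *Des* (desmin, named after its values were seen), was at 0 counts in each vehicle tumor and at 24, 5 and 5 counts with RGS. It passed the filter only through the RGS tumors, at a median of 5 counts, so it could only be called higher. With edgeR's own filter on low counts, 7 genes of the list were tested and 2 were higher. The RGS mean of *Des* was 5.66-fold above a vehicle floor of 3 counts per library. That mean rested mostly on RGS replicate 10 (1.14 CPM, against 0.376 and 0.306 CPM in RGS replicates 11 and 12). *Myh11*, the defining smooth muscle myosin, had 8, 1 and 0 counts with vehicle and 0, 1 and 24 counts with RGS. It did not pass the filter, and its RGS mean of 0.514 CPM (0.0880 CPM with vehicle) rested on RGS replicate 12. *Kcnmb1* had no count.

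Of 9 pericyte and vascular smooth muscle markers, 6 were tested, and 3 were lower and 3 higher. *Des* was again among those higher, and with edgeR's own filter on low counts 5 were tested and 2 were higher. *Pdgfrb*, the pericyte PDGF receptor, fell from 14.5 ± 3.99 to 3.15 ± 1.06 CPM (± SD, n = 3 per group, with a log2 fold change of -2.20, edgeR adjusted p = 1.79e-04), and *Notch3* and *Cspg4* fell with log2 fold changes of -1.27 and -0.87. *Rgs5*, a regulator of G-protein signaling that is abundant in pericytes, went from 1.30 ± 0.164 to 401 ± 29.5 CPM (± SD, n = 3 per group). *Mcam* had a log2 fold change of 0.46 (adjusted p = 0.0372), a call lost when any single tumor but vehicle replicate 7 was left out, and *Kcnj8* and *Abcc9* had no count. Summed over the list, the level was 152 to 243 CPM with vehicle and 507 to 557 CPM with RGS, most of the latter being *Rgs5*.

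Among 9 fibroblast markers, 7 were tested, with 3 lower and 1 higher. *Col3a1*, *Col1a2* and *Pdgfra* fell by 0.90, 0.73 and 0.70 on the log2 scale, while *Dcn* (decorin) went from 1.14 ± 0.495 to 10.7 ± 4.61 CPM (± SD, n = 3 per group), and *Lum* had no count. The sum of the list was 397 to 584 CPM with vehicle and 290 to 320 CPM with RGS. The part of such cells in the changes of *Acta2* and *Cnn1* was not tested. Of 5 endothelial markers, *Cdh5* rose from 0.555 ± 0.266 to 6.20 ± 3.78 CPM (± SD, n = 3 per group, edgeR adjusted p = 6.37e-04), and the list summed to 2.49 to 4.10 CPM with vehicle and 6.32 to 13.8 CPM with RGS. Of 8 skeletal muscle markers, *Myh4*, *Myh1*, *Myh2*, *Ckm* and *Myog* had no count in any tumor. *Mylpf* was at 5.17 ± 2.14 and 4.44 ± 1.63 CPM, *Tnnt3* at 3.12 ± 0.350 and 1.78 ± 0.594 CPM with groups that did not overlap (± SD, n = 3 per group), and *Acta1* had at most 25 counts. Neither *Mylpf* nor *Tnnt3* passed the test (edgeR, adjusted p = 0.774 and adjusted p = 0.362).

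For *Acta2* and *Srf*, the tested genes with a mean of at least 10 CPM whose log2 CPM values followed them most closely over the 6 tumors were listed as a description, out of 8902 genes. Closest to *Acta2* were *Ect2*, *Ifih1*, *2610002M06Rik*, *Glipr2* and *Dzip1*, with Pearson's r between 0.996 and 0.998. Closest to *Srf* were *Usp37*, *Prune1*, *Dele1*, *Relb* and *Vdr*, with r between 0.970 and 0.988. The points share the 6 libraries, their depths and the treatment groups.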

How the data were processed

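RNA from 6 YUMM3.3 tumors (3 vehicle, 3 RGS) was sequenced as paired-end reads of 150 bases. The table the authors deposited holds unnormalized counts of reads for each gene and tumor. The submitters' processing notes name cutadapt 1.18, FastQC 0.11.7, STAR 2.7.1a, featureCounts 1.6.4 and mm10, but the annotation release, strand setting and handling of multiply mapped reads are not given in the sources used here. Gene coordinates matched GENCODE M21 for all 38927 shared identifiers. Gene lengths are those of the table.

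From the counts, edgeR 4.0.16 in R 4.3.3 was run on 15355 genes (group median of 5 counts or more in vehicle or RGS tumors) with TMM factors and its quasi-likelihood test, and p-values were adjusted over all of them (Benjamini-Hochberg). Standard errors were derived from the F statistic. CPM values are scaled by TMM. The procedure was tested first on simulated data with 200 changed genes. It called 45% of 2-fold and 69% of 4-fold changes, and 1.72% of its calls were false. These rates come from 200 changed genes among 15355, whereas 32.8% of genes were called in the tumors. They need not hold for single genes named here. A gene that did not pass is not shown to be unchanged. Promoters came from RefSeq on GRCm38.p6. Alternatives were DESeq2 1.42.0, limma 3.58.1 (voom), other factors and filters, robust dispersions, thinning, subsets of genes, an adjusted p under 0.01 and each tumor left out.

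Named genes were the 10 members, the SRF partners, all genes of lists of up to 6 genes, up to 3 called genes per direction of longer lists with a mean of at least 1 CPM, and the 5 genes closest to *Acta2* and to *Srf* (log2 of CPM plus 0.5). Single marker genes given for their absence or low level, the genes overlapping *Tagln* and *Vcl*, and *Des* were picked with their values in view. The result of 1 further gene list is not reported here. The members and lists were chosen with earlier results of these data known. Nothing in the labels ties a tumor to a separate mouse, so p-values measure the spread between these samples, and intervals and floors cover counting error only where they rest on counts.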

Additional observations from a re-analysis of the deposited data

How the results depend on the processing

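Over 19 alternatives, the 8 tested genes kept direction and side of the threshold in 140 of 152 fits. *Acta2*, *Actb* and *Cnn2* did so in every one. DESeq2 and limma voom each called 2 of the genes higher, and an adjusted p under 0.01 left 3 lower. Leaving out 1 tumor gave 3 to 5 lower (3 without vehicle replicate 9) and 1 higher. Over all genes, an adjusted p under 0.01 left 1562 lower and 1607 higher, limma voom called 3408 lower and 3407 higher, and leaving out 1 tumor gave 1717 to 2551 lower and 1776 to 2698 higher. With library size only, the median log2 fold change of all genes was -0.19 instead of -0.05, and 62.8% of calls were lower instead of 50.3%. That scaling turned *Srf* to -0.056, *Actg1* to -0.081, *Elk4* to -0.054 and *Myl6* to -0.097. *Myl6* was -0.0039 with upper-quartile factors and -0.014 with limma voom. Leaving out 1 tumor gave -0.16 to 0.27 for *Srf*, -0.074 to 0.16 for *Actg1*, -0.17 to 0.24 for *Elk4* and -0.14 to 0.21 for *Myl6*. None of these reversed genes passed the threshold with all tumors in edgeR, and the cause of these changes was not tested. From plain counts the *Acta2* share fell by 2.74 percentage points instead of 4.04. The share of promoters with a CArG box was 71.4% when 1 C or G was allowed. No paired analysis was possible because the groups share no replicate number (7 to 9 against 10 to 12). *Tagln* and *Actg2* were too shallow to test. Thinned to the smallest library, *Cnn1* and *Myl9* were still called (adjusted p = 0.0186 and adjusted p = 0.0305, edgeR).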
